A study of Mus musculus with 6 samples.

Results

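Iron handling was examined in the liver transcriptome through 10 genes chosen by name, of 28476 in the deposited table. They are the hepcidin genes Hamp and Hamp2, the transferrin gene Trf, the transferrin receptor genes Tfrc and Tfr2, the iron importer gene Slc11a2, the ferritin genes Fth1 and Ftl1, the iron exporter gene Slc40a1 and the ferroxidase gene Cp. The 3 HepKO livers came from C57BL/6 mice with the genotype Nedd4 HepKO, and the 3 Flox livers from C57BL/6 mice with the genotype Flox. Nedd4 encodes the ubiquitin ligase NEDD4-1. All mice had been fasted overnight and had received 300 mg/kg acetaminophen into the peritoneum 24 h before the liver was taken. Acetaminophen is a drug whose overdose injures hepatocytes, and the series title places NEDD4-1 in that injury. No untreated livers were analysed, and each difference below is between 2 genotypes that both had the drug. The promoter behind the deletion, the age of the mice and the number of animals per library are not given in the sources used here, and p-values therefore measure the spread between libraries, which may be technical.

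Hepcidin is a peptide hormone that hepatocytes secrete. It binds ferroportin, the iron exporter that Slc40a1 encodes, and causes its breakdown, so that less iron leaves macrophages, hepatocytes and the gut. The bone morphogenetic protein (BMP) pathway, which senses iron, and the STAT3 pathway, which senses inflammation, both raise transcription of the hepcidin gene. Inside cells, the iron regulatory proteins bind hairpins in messenger RNA called iron-responsive elements. Bound in a 5′ untranslated region they block translation, and bound in the 3′ untranslated region of Tfrc they protect the transcript from decay.

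The upstream sequences of the hepcidin paralogs are shown because only Hamp among them is known as the iron hormone gene. The levels of the paralogs also lay in opposite directions in HepKO livers, although neither passed the test. Whether the upstream sequences bear on the levels of the paralogs was not tested. Both lie on the minus strand of mouse chromosome 7, Hamp at 30942368 to 30944032 and Hamp2 at 30922372 to 30924181, with 18186 bases between them. The sequences are the 150 bases before each start site in RefSeq on GRCm38.p6, at chr7:30944030-30944179 for Hamp and chr7:30924182-30924331 for Hamp2. Capitals mark the motif GGCGCC, the core of the BMP response element, and the STAT motif TTCNNNGAA.
Hamp: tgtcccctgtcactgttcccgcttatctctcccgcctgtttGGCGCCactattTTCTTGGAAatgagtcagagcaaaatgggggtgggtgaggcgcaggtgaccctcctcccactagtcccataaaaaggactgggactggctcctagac
Hamp2: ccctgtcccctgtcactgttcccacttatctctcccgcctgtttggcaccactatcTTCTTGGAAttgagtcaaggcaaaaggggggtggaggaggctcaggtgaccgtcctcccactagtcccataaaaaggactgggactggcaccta

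Over the 250 bases upstream, 227 of 247 aligned bases were identical between the paralogs (91.9%). The Hamp window held GGCGCC at -109 to -104 and TTCNNNGAA at -97 to -89 from the start site, with 6 bases between them. The Hamp2 window held TTCNNNGAA at -94 to -86, with the same letters as in Hamp, and no match to GGCGCC. Among 32851 RefSeq promoters searched on both strands over the same 250 bases, 9.59% held GGCGCC, 7.02% held TTCNNNGAA and 0.368% held both. A match of letters is a description and was not tested for binding. Promoters of 7 members were in the table. Of the other motifs searched over 300 bases, ACGTG, the core of the hypoxia response element, was found in Tfr2 and Tfrc and in 19.6% of all promoters. TGACNNNGC, the core of the antioxidant response element, was in none of these members' windows and in 12.4% of all promoters. GGCGCC was also found upstream of Tfrc.

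**Figure D1:**
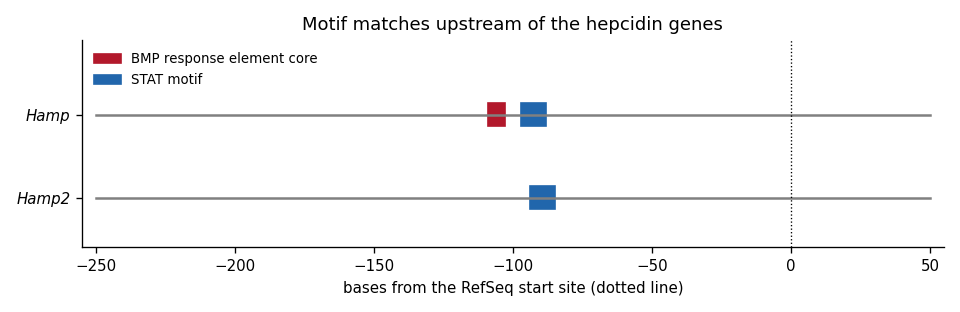
Positions of the BMP response element core (red) and the STAT motif (blue) from 250 bases before to 50 bases after the start sites of Hamp (top) and Hamp2 (bottom), in bases on the horizontal axis. Hamp holds a match to each at -109 and -97, and Hamp2 holds the STAT motif alone at -94.

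Matches of the members to an iron-responsive element pattern are shown because their place, in a 5′ or a 3′ untranslated region, separates ferritin and ferroportin from the transferrin receptor. The pattern was a C, 5 bases, the loop CAGTGN and 5 bases that pair with the first 5, in an untranslated region of a GENCODE M21 protein-coding transcript on GRCm38. It matched 158 of 21877 genes (0.722%) and 4 of the 10 members, at 7 sites. The pattern is strict, and elements of another shape would be missed. A member or region without a match may therefore still hold an element. Capitals mark the loop. The sites lie at chr19:9982732-9982760 (plus strand) for Fth1, chr7:45459779-45459807 (minus strand) for Ftl1 and chr1:45925465-45925493 (minus strand) for Slc40a1, all in 5′ untranslated regions. Tfrc had 4 sites in its 3′ untranslated region on the plus strand, at chr16:32631219-32631247, chr16:32631598-32631626, chr16:32631663-32631691 and chr16:32631710-32631738, listed in that order.
Fth1: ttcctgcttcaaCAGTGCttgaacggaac
Ftl1: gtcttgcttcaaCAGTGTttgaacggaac
Slc40a1: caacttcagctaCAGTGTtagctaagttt
Tfrc: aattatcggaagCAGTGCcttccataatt
Tfrc: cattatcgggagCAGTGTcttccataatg
Tfrc: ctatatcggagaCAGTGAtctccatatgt
Tfrc: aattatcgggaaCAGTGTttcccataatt

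Levels are in FPKM, fragments scaled to transcript length and to the mapped fragments of the library, so that genes can be compared. The libraries summed to between 456176 and 496303 FPKM, and how deeply they were sequenced is unknown. Mitochondrial transcripts took 24.6% of FPKM in HepKO replicate 1, a higher share than in HepKO replicates 2 and 3 (18.3% and 17.2%) or in any Flox liver (16.7% to 18.1%). Nedd4 was 0.618, 0.666 and 0.565 FPKM in the HepKO livers and 2.18, 2.59 and 2.23 FPKM in the Flox livers (limma adjusted p = 0.0015), in the direction of the labels. Tests were run with limma over 12712 genes, those whose mean reached 0.5 FPKM, on log2(FPKM + 1), two-sided, with Benjamini-Hochberg adjustment over all of them and a threshold of 0.05. All 10 members passed the filter. Log2 fold changes are HepKO minus Flox on this scale, and the change of low genes is understated by it.

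Of the 10 members, 2 fell in HepKO livers, Tfr2 and Slc40a1, 0 rose, and 8 did not pass. In the background of all genes tested, 20.3% were called, 9.33% as higher and 11% as lower. At an unadjusted p under 0.05 the limma fit had 1 member higher (Cp) and 4 lower (Hamp2, Tfrc, Tfr2 and Slc40a1), where 35.7% of all genes tested were below that p, 14.8% higher and 20.9% lower. The median log2 fold change was -0.17 over the members and -0.06 over all genes tested. The groups did not overlap for 7 members, 3 higher and 4 lower in HepKO livers, where 42.4% of all genes tested did not overlap, 17.2% higher and 25.2% lower. In the authors' deposited table the q-value was at most 0.05 for 2 members, Slc40a1 (0.017) and Cp (0.0396), against 8.97% of all genes in that table, and it was 0.167 for Tfr2. That share includes genes below the filter, among them 2003 at 0 in every library, so it is not a like background for the members.

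**Figure D2:**
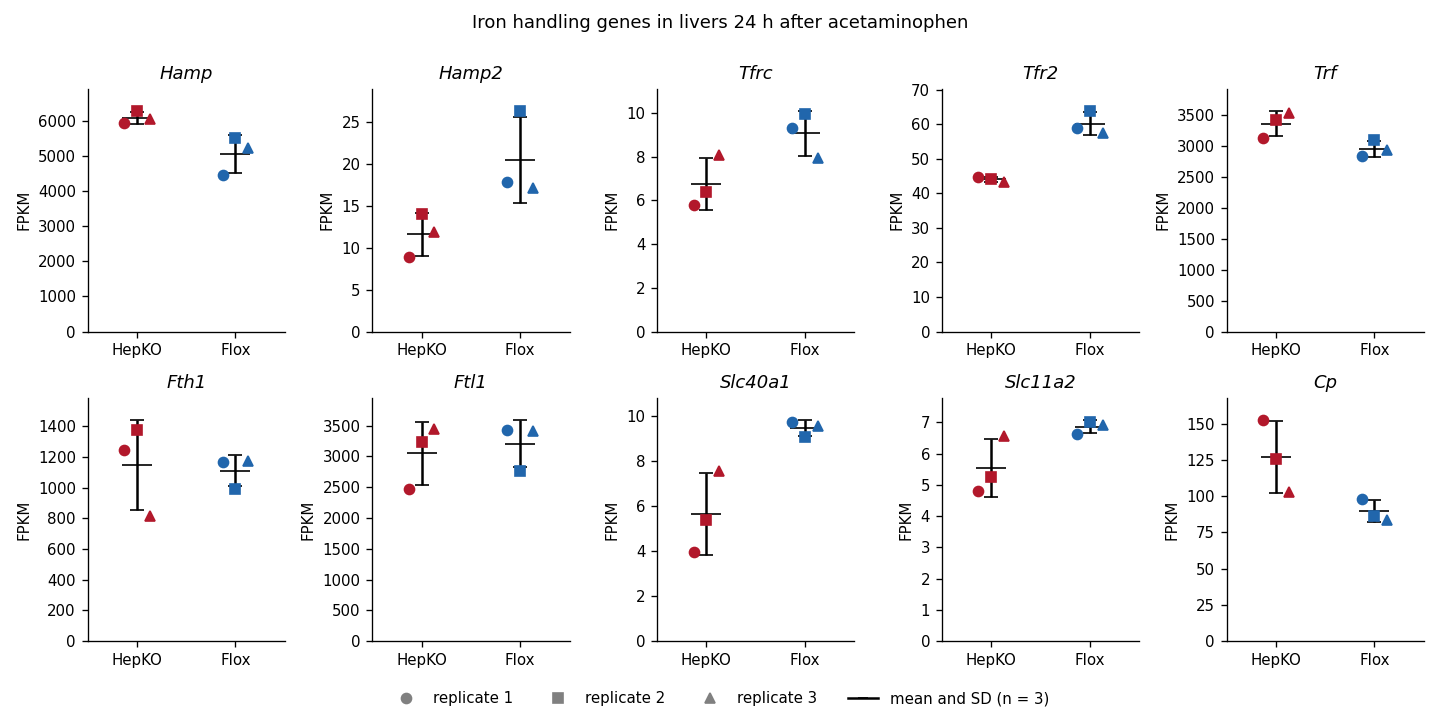
FPKM of the 10 iron handling genes in each liver library, HepKO in red on the left and Flox in blue on the right of each panel. Symbols are replicates and bars the mean and SD of 3 libraries. Tfr2 lies between 43.3 and 44.8 FPKM in HepKO livers and between 57.6 and 63.9 FPKM in Flox livers, while the ferritin genes Fth1 and Ftl1 overlap.

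**Figure D3:**
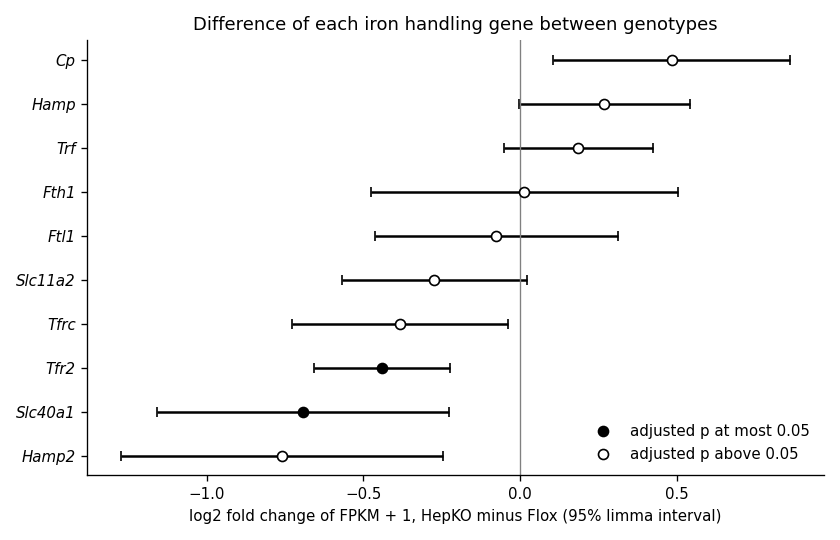
Log2 fold change of FPKM + 1 of each gene, HepKO minus Flox, with its 95% limma interval. Filled points passed at an adjusted p of 0.05. Only the points of Tfr2 (-0.44) and Slc40a1 (-0.69) are filled.

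The order of levels was much the same in both genotypes. Hamp was the most abundant member, with 6101 ± 178 FPKM in HepKO and 5079 ± 540 FPKM in Flox livers (SD, n = 3), rank 15 and rank 17 among all genes in the table. Trf, Ftl1 and Fth1 followed, each at 819 FPKM or more in every library. The ranges of Trf and Ftl1 overlapped in each genotype, and those of Ftl1 and Fth1 did not. Cp, Tfr2 and Hamp2 came next, each separate from its neighbours in the order. Tfrc, Slc40a1 and Slc11a2 were lowest, with ranges that overlapped from neighbour to neighbour in HepKO livers, whereas in Flox livers Slc11a2 lay below both others. The 10 genes together held 2.62% to 3.06% of the summed FPKM of HepKO livers and 2.65% to 2.80% of that of Flox livers.

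The hormone gene Hamp had 5953, 6299 and 6052 FPKM in the HepKO livers, against 4475, 5514 and 5249 FPKM in the Flox livers. Each HepKO liver was above each Flox liver, and Flox replicate 1 was the lowest. The mean was 1.20-fold higher in HepKO livers, with a log2 fold change of 0.27 (SE 0.11, 95% interval -0.0026 to 0.54), which did not pass (limma adjusted p = 0.143).

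Hamp2 is a mouse duplicate of the hepcidin gene, and in mice its overexpression does not produce the iron deficiency that Hamp does. Its level was 8.90, 14.02 and 11.9 FPKM in HepKO livers, against 17.9, 26.4 and 17.1 FPKM in Flox livers. All HepKO livers lay below all Flox livers, a 1.76-fold difference of means in the opposite direction from Hamp. The log2 fold change of -0.76 (SE 0.22) had a 95% interval of -1.27 to -0.24 and missed the threshold narrowly (limma adjusted p = 0.0506). It passed under 3 of 16 alternative settings, with adjusted p between 0.0364 and 0.123 over all of them.

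Within libraries, Hamp2 amounted to 0.150%, 0.223% and 0.197% of the Hamp level in HepKO livers and to 0.399%, 0.478% and 0.326% in Flox livers. The ratio was thus lower in each HepKO liver, at 0.190 ± 0.037% against 0.401 ± 0.076% in Flox livers (SD, n = 3). An exact two-sided permutation test gave p = 0.10, the smallest that 3 against 3 libraries allow. This outcome was fixed by the levels above, since the groups were separate in opposite directions for Hamp and Hamp2. The test therefore adds nothing to those levels. This ratio was chosen after the values were seen. The 2 transcripts are 94.6% identical over 410 aligned bases in GENCODE M21, with a longest identical run of 87 bases, so some reads can match both and the level of Hamp2 beside a much more abundant copy is uncertain.

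**Figure D4:**
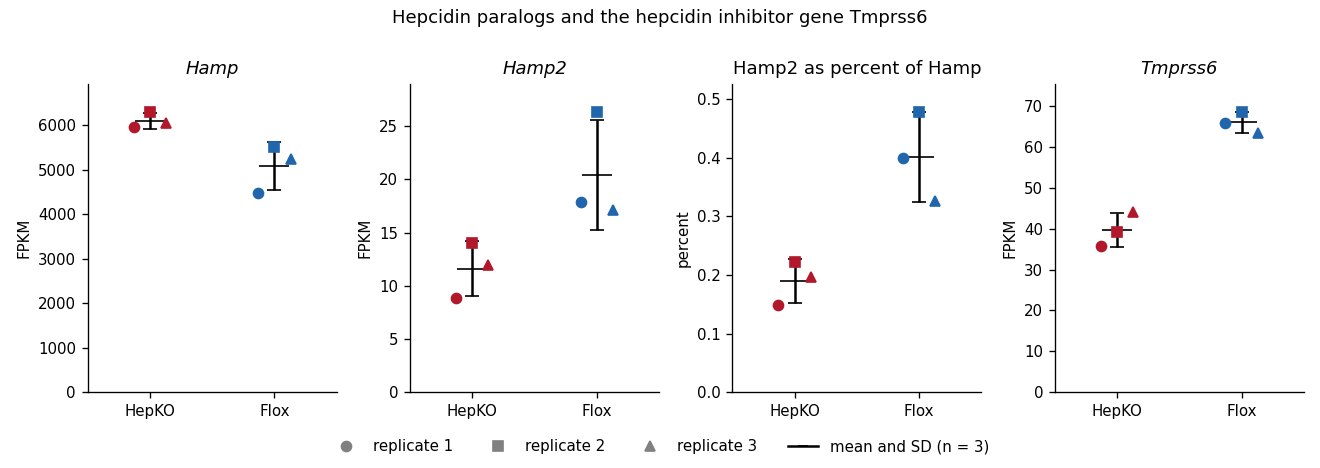
Levels in FPKM of Hamp, Hamp2 and Tmprss6, and Hamp2 as a percent of Hamp, in each library, HepKO in red on the left and Flox in blue on the right, with mean and SD of 3 libraries. Hamp is higher and the other 3 measures are lower in every HepKO liver than in every Flox liver.

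Transferrin, the product of Trf, carries iron in plasma. Trf had 3128, 3417 and 3526 FPKM in HepKO livers and 2829, 3085 and 2927 FPKM in Flox livers. The groups were separate but close. The mean was 1.14-fold higher in HepKO livers, and the log2 fold change of 0.19 (SE 0.10) did not pass (limma adjusted p = 0.231).

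Tfr2 encodes the receptor by which hepatocytes sense iron-loaded transferrin, an input to hepcidin control. It had 44.8, 44.0 and 43.3 FPKM in HepKO livers and 59.0, 63.9 and 57.6 FPKM in Flox livers. The HepKO libraries lay close together and well below every Flox library, and Tfr2 fell 1.37-fold (log2 fold change -0.44, SE 0.09, limma adjusted p = 0.0191). In whole liver, fewer cells of a type and less RNA per cell cannot be told apart. Hepatocyte markers were mixed, with 1 of 10 higher and 3 lower in HepKO livers. Their summed level was 46269 to 52025 FPKM in HepKO and 42236 to 49308 FPKM in Flox livers, and none was at 0. That sum is mostly Alb, with means of 26922 FPKM in HepKO and 25956 FPKM in Flox livers. In the same order, means were 951 and 1332 FPKM for Apoh, 2163 and 3046 FPKM for Ahsg, and 143 and 344 FPKM for Cps1, the 3 that fell. They were 5219 and 2763 FPKM for Fga, which rose. The part of hepatocyte markers in the result was not tested. The call of Tfr2 was lost without HepKO replicate 2 (adjusted p = 0.0743), Flox replicate 2 (0.0740) or Flox replicate 3 (0.0528).

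Tfrc encodes the general transferrin receptor, which takes iron into cells. Its level was 5.79, 6.39 and 8.09 FPKM in HepKO livers and 9.30, 9.95 and 7.95 FPKM in Flox livers. The groups overlapped, since HepKO replicate 3 was above Flox replicate 3. The log2 fold change of -0.38 (SE 0.14, 95% interval -0.73 to -0.04) did not pass (limma adjusted p = 0.111). Tfrc is also abundant in erythroid precursors and dividing cells. Of 5 tested erythroid markers, 4 rose and 0 fell (limma, and 1 was lower at an unadjusted p under 0.05). The 8 erythroid markers in the table summed to 551 to 974 FPKM in HepKO livers against 132 to 234 FPKM in Flox livers. That sum is mostly globin, and the red cell membrane gene Slc4a1 stood at or near 0 in every library, at most 0.0477 FPKM. The 10 proliferation markers summed to no more than 2.47 FPKM in any library, and Bub1 was listed at 0 throughout. The part of these cells in the level of Tfrc was not tested.

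Slc11a2 encodes the divalent metal transporter DMT1, which moves iron out of endosomes into the cytosol. Its level was 4.79, 5.26 and 6.57 FPKM in HepKO livers and 6.63, 7.02 and 6.91 FPKM in Flox livers. HepKO replicate 3 came close to the lowest Flox liver, and the log2 fold change of -0.27 (SE 0.12) did not pass (limma adjusted p = 0.167).

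The ferritin genes, whose products form the shell that stores iron, overlapped between the genotypes and did not pass. The heavy chain gene Fth1 had 1244, 1379 and 819 FPKM in HepKO livers and 1168, 993 and 1177 FPKM in Flox livers. The HepKO livers held both the highest and the lowest value, and the log2 fold change of 0.01 had a 95% interval of -0.48 to 0.50 (limma adjusted p = 0.974). The light chain gene Ftl1 had 2478, 3229 and 3451 FPKM in HepKO livers and 3435, 2762 and 3410 FPKM in Flox livers. Its groups overlapped too, with a log2 fold change of -0.08 and a 95% interval of -0.46 to 0.31 (adjusted p = 0.779). Changes up to these bounds are not excluded by 3 libraries a group, and both genes are known to be controlled largely in translation through the 5′ elements shown above, which transcript levels do not measure.

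The Fth1 to Ftl1 ratio was 0.502, 0.427 and 0.237 in HepKO livers, a wider spread than the 0.340, 0.360 and 0.345 of Flox livers (exact two-sided permutation p = 0.70 for the means). HepKO replicate 3 had the lowest ratio of the 6 libraries and HepKO replicate 1, which also had the high mitochondrial share, the highest. Ferritin levels carry a counting limit, since the light chain has processed copies in the genome. Ftl1-ps1 had 71.6 ± 1.76 FPKM in HepKO and 80.5 ± 9.23 FPKM in Flox livers, and Ftl2-ps 26.4 ± 21.1 and 21.1 ± 8.61 FPKM (SD, n = 3), and reads could be split among them. Gm22133, which overlaps Ftl1 on the same strand, was listed at 5080 FPKM in HepKO and 4901 FPKM in Flox livers.

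Slc40a1 encodes ferroportin, the exporter that hepcidin removes, which is prominent in Kupffer cells and also present in hepatocytes. It had 3.97, 5.40 and 7.57 FPKM in HepKO livers and 9.76, 9.10 and 9.58 FPKM in Flox livers. The Flox libraries lay within a narrow range and all HepKO libraries below it, with a wider spread. Slc40a1 fell 1.68-fold (log2 fold change -0.69, SE 0.20, limma adjusted p = 0.0498), a call at the very edge of the threshold. The call was lost without HepKO replicate 1 (adjusted p = 0.0884), HepKO replicate 2 (0.127), Flox replicate 1 (0.107), Flox replicate 2 (0.113) or Flox replicate 3 (0.124), and the log2 fold change stayed between -0.89 and -0.50.

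Of 10 Kupffer cell markers, 1 was higher in HepKO livers (Marco) and 0 were lower, with the same counts at an unadjusted p under 0.05 (limma). Their summed level was 133 to 173 FPKM in HepKO livers and 69.0 to 138 FPKM in Flox livers, and none was at 0. The markers within that sum went both ways. Group means were higher in HepKO livers for Marco (39.8 against 13.0 FPKM), C1qa, C1qb, C1qc, Vsig4 and Folr2. They were lower for Clec4f (8.60 against 12.6 FPKM), Timd4 (0.621 against 1.09), Adgre1 (1.13 against 1.48) and Cd5l (16.2 against 16.6). Monocyte and macrophage markers had 6 higher and 1 lower of 7 tested, with sums of 133 to 161 FPKM in HepKO livers against 58.7 to 74.3 FPKM in Flox livers. HepKO replicate 1, with the highest mitochondrial share, had the lowest level of Slc40a1, Slc11a2 and Tfrc among the 6 libraries. That library was also lowest in the members Hamp2 and Ftl1 and highest in Cp. Among genes described below it was lowest in Tmprss6, Fgl1, Aco1, Ireb2, Flvcr2 and Cisd1 and highest in Hmox1. The part of these features in the level of Slc40a1 or of the other genes was not tested.

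Cp encodes ceruloplasmin, the copper ferroxidase of plasma that oxidises exported iron so that transferrin can bind it, and an acute phase protein. Its level was 152, 125 and 103 FPKM in HepKO livers and 98.1, 86.7 and 83.7 FPKM in Flox livers. The groups were separate, with HepKO replicate 3 closest to the Flox range. The mean was 1.42-fold higher in HepKO livers (log2 fold change 0.48, SE 0.16, 95% interval 0.11 to 0.86), which did not pass (limma adjusted p = 0.0756). Without HepKO replicate 3 it did, with a log2 fold change of 0.62 and an adjusted p of 0.0345.

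The genes around the members were taken from 5 lists with 76 entries, of which 71 were tested, 5 rose and 13 fell. Over all genes tested, 20.3% were called, 9.33% as higher and 11% as lower. These shares are also the background for the counts of each list below. Folds are ratios of group means. Of the 18 calls, 5 were kept without each library in turn (Tmprss6, Slc31a1, Flvcr2, Hmox1 and Cisd1). The other 13 were each lost without at least 1 library, at adjusted p up to 0.125.

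Of 24 tested genes that control hepcidin, 2 fell, 0 rose and 22 did not pass (at an unadjusted p under 0.05, 4 lower and 2 higher by limma, where 35.7% of all genes were below that p). Their median log2 fold change was 0.10, against -0.06 over all genes, but it was 0.05 without Flox replicate 1 and turned to -0.01 without Flox replicate 2. Tmprss6 encodes matriptase-2, a membrane protease that cuts the BMP coreceptor hemojuvelin and so lowers hepcidin. It had 35.7, 39.1 and 44.1 FPKM in HepKO livers and 65.8, 68.5 and 63.4 FPKM in Flox livers, and fell 1.66-fold (log2 fold change -0.72, SE 0.11, limma adjusted p = 0.0065). Fgl1, a secreted hepatocyte protein known in mice to restrain hepcidin, had 163 ± 12.9 FPKM in HepKO and 221 ± 12.8 FPKM in Flox livers (SD, n = 3, limma adjusted p = 0.0323). That call was lost without any library except HepKO replicate 3, at adjusted p up to 0.107. The Il6 receptor gene Il6ra (log2 fold change -0.45) and Cebpa (-0.42) were also lower at an unadjusted p under 0.05 (limma). Smad1 (0.31) and Furin (0.29) were higher at that p. Hjv, which encodes hemojuvelin, had a log2 fold change of -0.33, in the same direction as Tmprss6, and its groups overlapped. Il6ra, Cebpa, Smad1, Furin and Hjv did not pass. The part of the listed genes in the level of Hamp was not tested.

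Ligands and targets of the BMP pathway gave no call. Bmp6, the main iron-induced ligand, had 1.13 ± 0.127 FPKM in HepKO and 0.999 ± 0.326 FPKM in Flox livers, and Bmp2 1.79 ± 0.354 and 2.21 ± 0.654 FPKM (SD, n = 3, limma adjusted p = 0.656 and 0.485). The target genes Id1, Smad7 and Atoh8 had adjusted p of 0.626, 0.187 and 0.306. Id1 was 55.6, 61.9 and 69.9 FPKM in HepKO livers and 28.8, 71.2 and 67.7 FPKM in Flox livers. Bmp2 and Bmp6 are made mainly by sinusoidal endothelial cells, of whose 10 markers 4 rose and 1 fell (4 higher and 4 lower at an unadjusted p under 0.05 by limma), with sums of 44.3 to 61.5 FPKM in HepKO livers and 37.0 to 44.8 FPKM in Flox livers. Their part in the ligand levels was not tested. Flox replicate 1, the library lowest in Hamp, was also lowest in Id1 and in Smad7. Il6, the cytokine that drives hepcidin through STAT3, was listed at 0.148, 0.116 and 0.037 FPKM in HepKO livers and at 0 in all Flox livers, below the filter for testing.

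Both iron regulatory protein genes fell in HepKO livers. Aco1, which encodes iron regulatory protein 1, was 19.4, 21.8 and 24.0 FPKM in HepKO livers and 31.2, 38.5 and 34.5 FPKM in Flox livers (1.60-fold lower, limma adjusted p = 0.0147). Ireb2, which encodes iron regulatory protein 2, was 3.28, 4.13 and 4.38 FPKM in HepKO livers and 6.27, 5.21 and 5.63 FPKM in Flox livers (1.45-fold lower, adjusted p = 0.0492). The call of Aco1 was lost without HepKO replicate 2, Flox replicate 2 or Flox replicate 3 (adjusted p up to 0.0561), and that of Ireb2 without any of the 6 libraries (0.0537 to 0.119). These were the 2 that fell among 8 tested genes of this system and of ferritin turnover, and 0 rose, also at an unadjusted p under 0.05 (limma). The list's median log2 fold change was -0.11, and -0.04 without HepKO replicate 1 and -0.07 without Flox replicate 2. Fbxl5, the iron sensor of the ligase that degrades iron regulatory protein 2, and Ncoa4, the receptor that delivers ferritin to autophagosomes, were among the 6 that did not pass.

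Of 9 tested genes of other iron and copper transport, 2 rose and 3 fell. Slc39a14 encodes ZIP14, the importer of iron not bound to transferrin into hepatocytes. It was 38.0, 40.3 and 36.0 FPKM in HepKO livers and 20.7, 27.8 and 25.4 FPKM in Flox livers, a rise of 1.55-fold (limma adjusted p = 0.0199). Slc31a1, the main copper importer gene, fell 1.79-fold to 19.7 ± 1.29 FPKM in HepKO livers, against 35.2 ± 4.14 FPKM in Flox livers (adjusted p = 0.0057). Atp7b, which loads copper onto ceruloplasmin, fell 1.64-fold to 1.94 ± 0.111 FPKM, against 3.18 ± 0.631 FPKM in Flox livers (SD, n = 3, adjusted p = 0.0412). The metalloreductase genes Steap2 and Steap3 went opposite ways, at 1.42 ± 0.0879 and 0.934 ± 0.0922 FPKM in HepKO and 0.543 ± 0.186 and 1.59 ± 0.183 FPKM in Flox livers. Steap2 rose 2.61-fold (adjusted p = 0.0128) and Steap3 fell 1.70-fold (0.0351). The call of Slc39a14 was lost without HepKO replicate 1, HepKO replicate 2 or Flox replicate 3 (adjusted p up to 0.0762), and that of Steap2 without Flox replicate 2 (0.0503). Those of Atp7b and Steap3 were lost without any library except Flox replicate 1 (up to 0.109 and 0.110).

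Heme and hemoglobin scavenging genes split, with 2 of 10 higher and 3 lower. Hmox1 encodes heme oxygenase 1, which releases iron from heme. It had 275, 239 and 237 FPKM in HepKO livers and 60.9, 21.8 and 29.5 FPKM in Flox livers, a rise of 6.69-fold (log2 fold change 2.84, limma adjusted p = 0.003). Spic, a transcription factor gene of macrophages that recycle red cells, rose to 1.14 ± 0.335 FPKM, against 0.369 ± 0.118 FPKM in Flox livers (adjusted p = 0.0282). The transporter genes Flvcr2 and Slc46a1 of this list and the scavenger receptor gene Lrp1, whose product takes up hemopexin with heme, fell. Slc46a1 had 4.53 ± 1.15 FPKM in HepKO and 7.63 ± 1.11 FPKM in Flox livers (adjusted p = 0.0415), and Lrp1 17.7 ± 1.38 and 24.2 ± 1.12 FPKM (SD, n = 3, adjusted p = 0.0273). Flvcr2 had 0.0912, 0.399 and 0.183 FPKM in HepKO livers and 1.08, 1.73 and 2.29 FPKM in Flox livers. The plasma scavengers of hemoglobin and heme, Hp and Hpx, had means of 4006 and 3952 FPKM in HepKO livers and 4334 and 4098 FPKM in Flox livers and did not pass (adjusted p = 0.713 and 0.865). The call of Spic was lost without HepKO replicate 1, HepKO replicate 2, Flox replicate 2 or Flox replicate 3 (adjusted p up to 0.0911). Those of Slc46a1 and Lrp1 were lost without any library except HepKO replicate 1 (up to 0.125 and 0.0999). Of 8 tested neutrophil markers, 8 rose, with sums of 135 to 160 FPKM in HepKO livers against 10.5 to 20.3 FPKM in Flox livers, and their part in these levels was not tested.

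Mitochondrial iron and iron-sulfur genes had 3 lower and 1 higher of 20. Their median log2 fold change was -0.18, and -0.10 without HepKO replicate 1 and -0.28 without HepKO replicate 3. Cisd1, which encodes the outer membrane iron-sulfur protein mitoNEET, was 29.6, 41.6 and 47.9 FPKM in HepKO livers and 83.9, 77.3 and 82.2 FPKM in Flox livers, and fell 2.04-fold (log2 fold change -1.04, limma adjusted p = 0.0098). Isca1, an assembly factor gene, rose 1.41-fold (adjusted p = 0.0322). The call of Isca1 was lost without any library except HepKO replicate 3, at adjusted p between 0.0584 and 0.111.

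**Figure D5:**
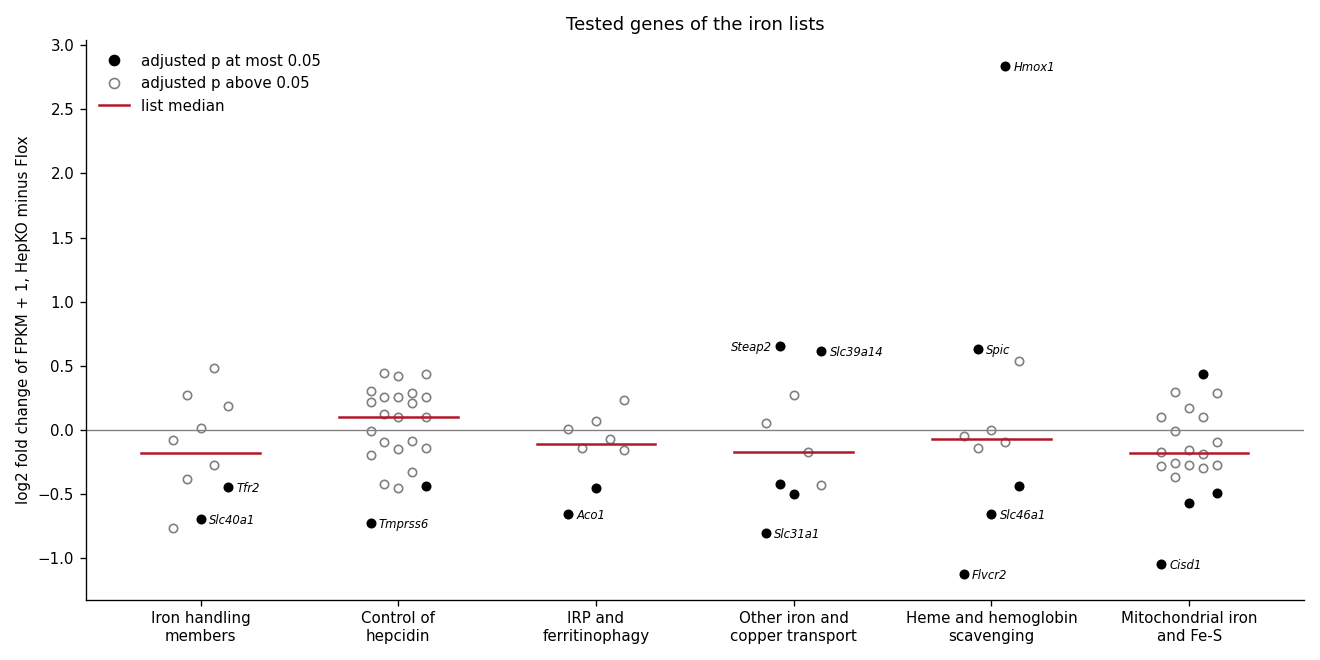
Log2 fold change of FPKM + 1, HepKO minus Flox, of each tested gene in the list of iron handling members and 5 related lists. Filled points passed at an adjusted p of 0.05, names mark those of them that are members or lie beyond 0.6 in either direction, and red lines are list medians. Hmox1 (2.84) lies far above the other genes, and the medians lie between -0.18 and 0.10.

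The 5 genes whose log2(FPKM + 1) followed that of Hamp most closely over the 6 libraries were Spns2, Selenbp2, Gm39157, Agpat5 and Foxq1, with Pearson's r of 0.990, 0.989, 0.987, 0.986 and 0.986. All had their lowest value in Flox replicate 1, as Hamp did. Among the members, Trf was nearest (r = 0.88) and Hamp2 had r = -0.49. These values describe 6 libraries of 2 genotypes that share their scaling.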

How the data were processed

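RNA was measured in 6 mouse liver libraries made from poly(A) RNA with a dUTP-marked strand and read as pairs, per the labels' protocols. The authors deposited FPKM per gene and library, with their own p-values and q-values, per the file headers. Per the submitters' processing notes, the tools were HISAT2 2.0.4 and StringTie 1.3.4d, with edgeR, DESeq2 and cutadapt 1.9, and no roles are stated. Neither the build nor whether counting used strand is given in the sources used here. GENCODE M21 (GRCm38) holds 28396 of the identifiers, 24678 of them at the same position, as are 7 of the 10 members, so coordinates are given as GRCm38.

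Count tests were not used because FPKM values are no counts. Ratios of low values between libraries showed no whole-read steps (the fullest histogram bin of any library pair held 2.17% to 3.11% of genes), so depth is unknown. Genes were tested with limma 3.58.1 (R 4.3.3), a variance trend and no term but genotype. Exact permutation tests used scipy 1.17.1, alignments Biopython 1.88, and plots matplotlib 3.10.9. No pair of libraries had equal values, shared zeros included, in more than 0.212% of the genes tested.

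The members, gene lists and tests were chosen with earlier results of these data known. Genes named are the members, Nedd4, Bmp2, Bmp6, Id1, Smad7, Atoh8 and Il6. From each pathway list all called genes are named if at most 6, otherwise the 3 largest changes each way, except that some genes in the counts are not reported here by name. The 5 genes most like Hamp are also named. Marker genes and others were named after their values were seen. The protein sequences planned for the hepcidin paralogs were not used here and transcripts were aligned instead. Alternatives were other pseudocounts (0.1 and 0.5), filters (none, or a mean of 1 FPKM), 3 rescalings, 2 limma settings, a replicate block, leaving out each library, and Hamp and Hamp2 added together.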

Additional observations from a re-analysis of the deposited data

How the results depend on the processing

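With 3 libraries a group, calls near the threshold depended on the choices to different degrees. Slc40a1 lost its call in 11 of 16 alternatives and Tfr2 in 4 of 16, and Hamp2 gained a call in 3 of 16. All genes called numbered 2583 (1186 higher, 1397 lower), and 1281 to 2257 without 1 library (669 to 1035 higher, 612 to 1303 lower); without a filter 899 were lower. The members called were 0 higher and 2 lower; without 1 library 0 to 1 were higher and 0 to 2 lower, and 1 was lower with a pseudocount of 0.1 or 0.5, with no filter, or with no variance trend. Slc40a1 lost its call at a log2 fold change of -0.78 (pseudocount 0.1), -0.74 (pseudocount 0.5), -0.69 (no filter, or no variance trend) and -0.74 (common sum of all genes), and spanned -0.89 to -0.50 without 1 library. Hamp2 passed at -0.76 with a mean of at least 1 FPKM and at -0.81 with a common sum. Tfr2 spanned -0.47 to -0.40 without 1 library and Cp 0.34 to 0.62. Fth1 changed sign with a common sum (-0.046) and without 1 library (-0.14 to 0.24), as did Ftl1 (-0.18 to 0.067), Bmp6 (-0.033 to 0.20) and Id1 (-0.16 to 0.48) without 1 library, and none of these 4 was called. Hamp did not pass under any of its 17 alternatives, including Hamp and Hamp2 added together. Nedd4 passed under all 16. Over the alternatives, hepcidin control genes had 1 to 3 lower (2 in the report), iron regulatory and ferritin turnover genes 0 to 2 lower (2), other transport genes 1 to 2 higher (2) and 1 to 3 lower (3), heme genes 1 to 3 higher (2) and 1 to 3 lower (3), and mitochondrial genes 0 to 1 higher (1) and 1 to 4 lower (3). Same-numbered libraries of the 2 genotypes are not labelled as pairs. Their deviations from the group means correlated at -0.025 to 0.0029 over all genes tested, which cannot exclude shared handling that moved some genes. With the replicate block 1551 genes were called (776 higher, 775 lower) and 1 member was lower. In that fit Tfr2 (-0.44) and Slc40a1 (-0.69) did not pass and Hamp2 (-0.76) did. The cause of these changes was not tested.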
